A study of Mus musculus with 18 samples.

Results

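RNA sequencing of the quadriceps compared 3 HSA-LR mice with 3 WT mice, 6 of the 18 libraries of the series. The members were chosen by their titles, HSA-LR_NT_Quad and FVB_WT_Quad. All of these mice were of the FVB strain, 20 weeks old and listed as untreated. HSA-LR mice carry a human skeletal actin transgene with expanded CTG repeats under the actin promoter, which limits the model to RNA toxicity that starts in skeletal muscle fibers. The other libraries of the series are the gastrocnemius of the same mice and both muscles of 3 HSA-LR mice injected with Pip6a-PMO (a peptide-conjugated antisense oligomer). The treated quadriceps libraries entered the fit to share its estimate of spread and are otherwise not described.

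Myotonic dystrophy type 1 is caused by expanded CUG repeats in RNA, which gather in nuclear foci and hold back the splicing factor MBNL1. Missplicing of the chloride channel Clcn1 then leads to myotonia, the delayed relaxation of muscle. A piece of muscle also holds macrophages, fibroblasts, vessels, nerve with its Schwann cells, fat and fibers of slow and fast type, and bulk RNA reads all of them at once. Fewer cells of a type and less RNA per cell cannot be told apart in such data.

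Counts of read pairs on exon bins (stretches of exon between annotated exon ends) were deposited for 391858 bins of 46725 genes. Bins were added up gene by gene, and levels are given as CPM, the count relative to the TMM-scaled size of the library. Totals were 98916844 to 123686154 counts in the 6 libraries. Exons that MBNL1 controls matched the labels. Exon 22 of Atp2a1 (GRCm38, chr7:126446545-126446586) took 3.98%, 3.98% and 3.95% of all Atp2a1 counts in WT mice 1, 2 and 3, and 0.922%, 0.831% and 0.861% in HSA-LR mice. Exon 7a of Clcn1 held 0.0949%, 0.0876% and 0.0868% in WT mice and 1.14%, 1.19% and 1.08% in HSA-LR mice. Summed Y-linked CPM (Ddx3y, Kdm5d, Uty and Eif2s3y) was 1.45 in WT mouse 3 and 161 to 189 in the other 5 mice, 189 being WT mouse 2. This goes against the labels of WT mice 2 (female) and 3 (male), so no group was formed by sex, and the part of this difference in the results was not tested. HSA-LR mouse 3 stood apart by low fat genes, HSA-LR mouse 1 by high immediate early genes and WT mouse 3 by high slow fiber genes, and values without them are given where they matter.

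In all, 15574 genes were tested with edgeR's quasi-likelihood test, and a gene was called at an adjusted P (Benjamini-Hochberg) under 0.1. In HSA-LR quadriceps, 1719 genes (11.0%) were called higher and 1450 (9.31%) lower. The lower calls numbered 876 when HSA-LR mouse 1 was left out and 911 when HSA-LR mouse 2 was. At least 2-fold changes made up 707 of the higher calls (4.54% of genes) and 285 of the lower calls (1.83%). The median log2 FC over all genes was 0.01. All 3 HSA-LR mice lay above all 3 WT mice in 2696 genes (17.3%) and below them in 2449 (15.7%). These shares are the background for every gene list that follows. Of the 3169 genes called, 3097 had no overlap between the groups. A lack of overlap in a called gene therefore adds little to its call.

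**Figure D1:**
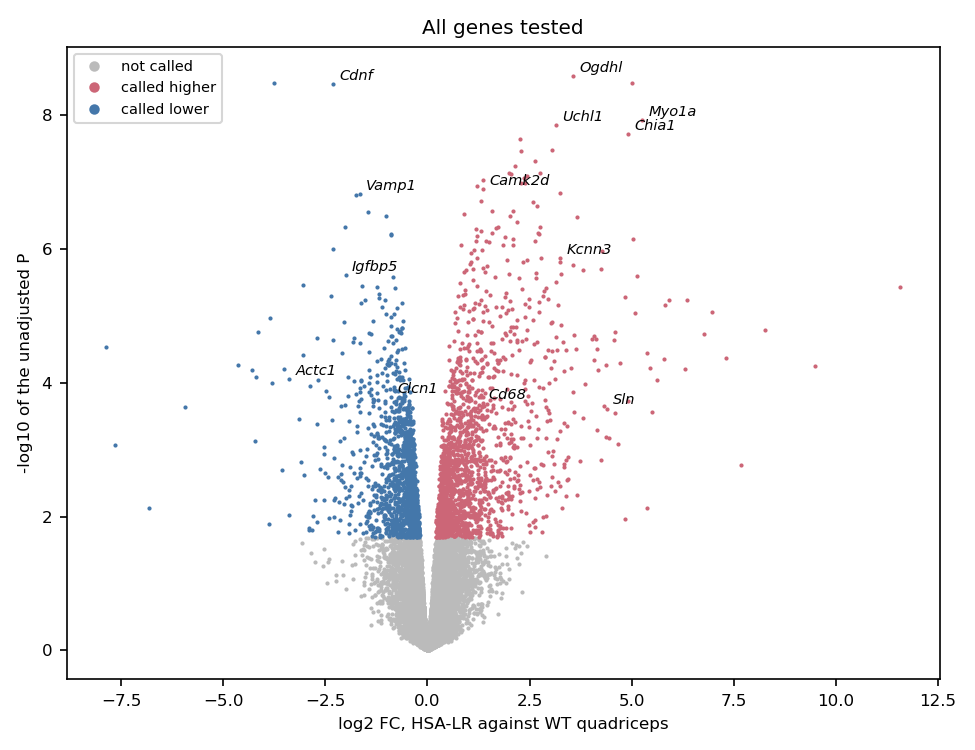
Log2 FC (x axis) and the -log10 of the unadjusted P (y axis) of the 15574 genes tested in HSA-LR against WT quadriceps. At least 2-fold changes are more frequent on the right (707 genes called) than on the left (285), and Ogdhl and Cdnf are among the genes with the smallest P.

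Several of the genes with the smallest P had a low level in one of the groups. Ogdhl, a relative of the oxoglutarate dehydrogenase of the citrate cycle, lay at 2.22, 2.14 and 1.65 CPM in WT mice and 20.8, 25.1 and 25.5 CPM in HSA-LR mice (log2 FC 3.57 ± 0.16, adjusted P = 1.32e-05; ± is the SE here and throughout). Myo1a, a myosin of the brush border, lay at 0.801, 0.467 and 0.589 CPM in WT mice and 18.7, 24.6 and 27.9 CPM in HSA-LR mice (log2 FC 5.26 ± 0.28, adjusted P = 3.61e-05). The groups stood far apart in both genes, and no single mouse made the difference. Uchl1, a ubiquitin hydrolase known from neurons, lay at 3.98, 4.42 and 3.89 CPM in WT mice and 38.0, 30.3 and 39.9 CPM in HSA-LR mice (log2 FC 3.14 ± 0.17, adjusted P = 3.61e-05, chr5:66676091-66687234). Chia1, an acidic chitinase, lay at 0.0704, 0.0529 and 0.104 CPM in WT mice and 2.72, 1.94 and 2.24 CPM in HSA-LR mice (log2 FC 4.90 ± 0.27, adjusted P = 4.19e-05). The other genes at the top of the higher calls include Fbp2 (muscle fructose bisphosphatase, log2 FC 2.29), the chaperone Hspa2 (2.0), the coregulator Cited1 (3.05), the glycosyltransferase Galnt7 (2.27), Cpne2 (2.62), Prepl (2.15), Mpzl3 (2.76), Ahnak2 (2.05), Calml4 (2.37) and Ccdc192 (5.0). Serpinb1c also ranks there (2.44), and its value is uncertain, because close paralogs can share reads.

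Among the genes called lower, Cdnf, a neurotrophic factor of the endoplasmic reticulum, lay at 36.7, 44.0 and 42.7 CPM in WT mice and 8.14, 7.47 and 9.08 CPM in HSA-LR mice (log2 FC -2.32 ± 0.11, adjusted P = 1.32e-05). Its levels were tight within each group and did not overlap between the groups. Vamp1, a vesicle SNARE of motor nerve terminals and other secretory cells, fell by 1.65 on the log2 scale, Sytl2, an effector of Rab27, fell by 2.02, and Avil, an actin-binding protein of the gelsolin family, fell by 3.05. Gdpd5 (-1.76), the acyl-CoA thioesterase Acot7 (-1.44), Nudt6 (-1.02) and the thrombin receptor F2rl3 (-2.30) completed the list with Igfbp5, which is described with the growth factors. All of the genes in these paragraphs kept their call in every alternative that gave them a value.

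Of 38 gene lists, macrophage genes had the largest share of members called higher, and endothelial genes the largest share called lower. The lists were written with earlier results of these data known, so that their counts are descriptions and no list was tested as a set.

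**Figure D2:**
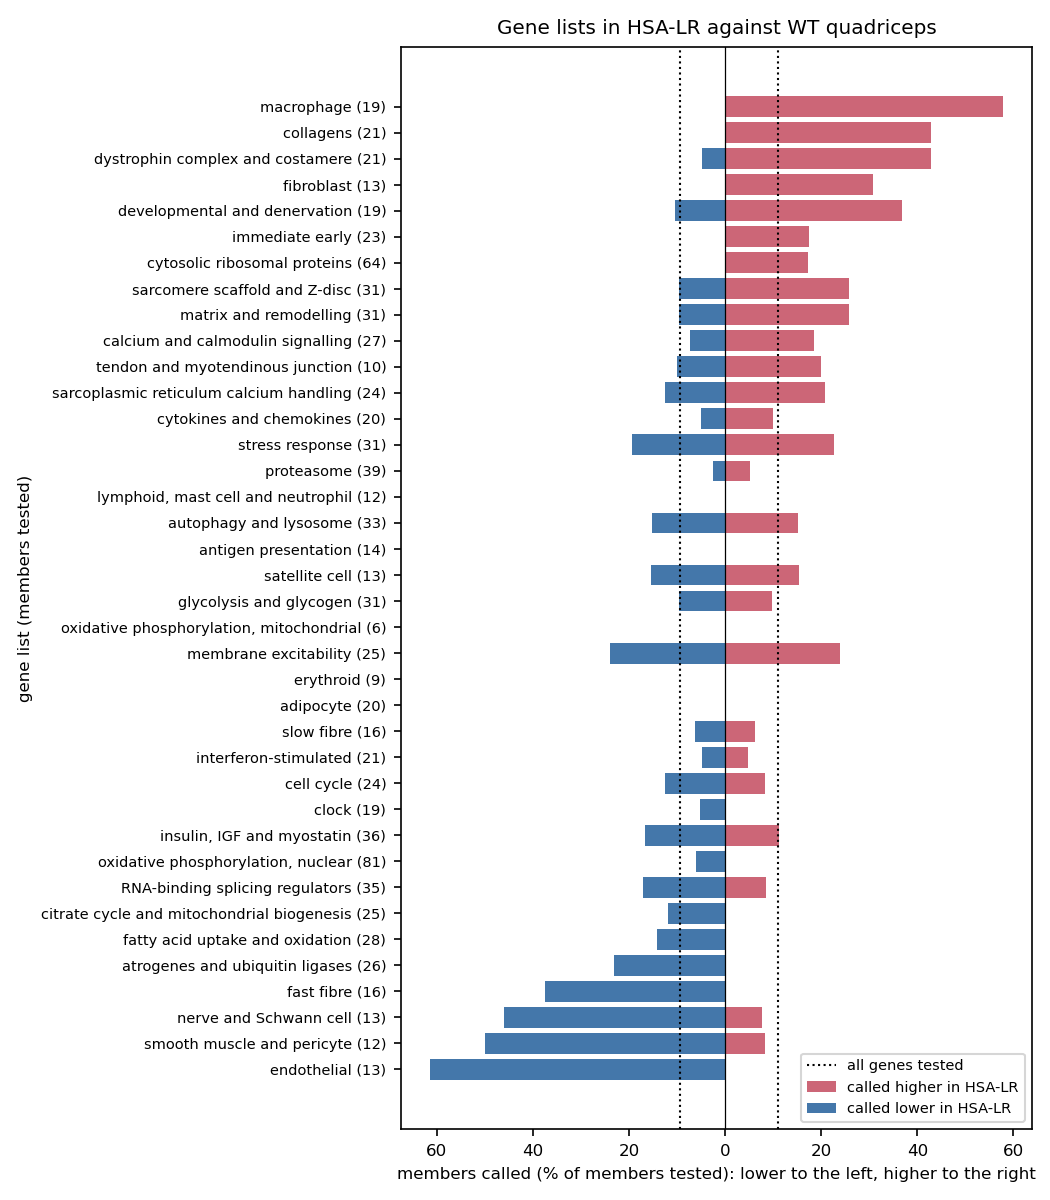
Share of the tested members of each gene list (y axis, members tested in brackets) that were called lower (left, blue) or higher (right, red) in HSA-LR quadriceps, in percent. Dotted lines mark the shares of all genes, 9.31% and 11.0%. Macrophage genes, collagens and the dystrophin complex extend to the right, and endothelial, smooth muscle, Schwann cell and fast fiber genes to the left.

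Macrophage genes rose in HSA-LR quadriceps. Of 19 members tested, 11 were called higher and 0 lower, with a median log2 FC of 0.75, and 18 had a log2 FC above 0. Cd68, a lysosomal glycoprotein of macrophages, lay at 3.95, 2.66 and 2.80 CPM in WT mice and 6.62, 8.48 and 8.88 CPM in HSA-LR mice (log2 FC 1.35 ± 0.23, adjusted P = 0.00608). Mrc1, the mannose receptor of tissue-resident macrophages, lay at 9.61, 9.56 and 6.38 CPM in WT mice and 15.7, 20.2 and 21.1 CPM in HSA-LR mice (log2 FC 1.16 ± 0.20, adjusted P = 0.00703). Csf1r, the receptor for the growth factor that keeps macrophages alive, lay at 16.1, 12.9 and 9.38 CPM in WT mice and 24.1, 27.0 and 25.6 CPM in HSA-LR mice (log2 FC 1.0 ± 0.18, adjusted P = 0.00872). The 3 HSA-LR mice lay above the 3 WT mice in each of these genes, and WT mouse 1 was the highest WT mouse. Ctss, a lysosomal protease of antigen processing, was called (log2 FC 1.06 ± 0.23, adjusted P = 0.0179), as was Adgre1, which encodes F4/80 (log2 FC 1.15 ± 0.30, adjusted P = 0.0368, with adjusted P = 0.115 without HSA-LR mouse 2). Lyz2, Tyrobp, Ccr2, C1qb, C1qc and Cx3cr1 were also called higher, at log2 FC 0.64 to 1.72, and are named after their values were seen.

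The macrophage score (mean log2 CPM of the members, as a difference from the WT mean) was 0.40, -0.19 and -0.21 in WT mice and 0.63, 0.92 and 0.93 in HSA-LR mice. The groups did not overlap, and the difference was 0.82 (SD 0.35 in the 3 WT mice and 0.17 in the 3 HSA-LR mice). Summed CPM of the members was 72.1 to 102 in WT and 125 to 170 in HSA-LR mice. With WT mouse 2 or 3, or HSA-LR mouse 2 or 3, left out, 7, 6, 6 and 7 members were called in place of 11, whereas 14 were called without WT mouse 1.

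The purine-rich core GAGGAA is bound by PU.1, the ETS factor of the myeloid lineage. Because macrophage genes moved together, 2 of their promoters are shown with that motif in capitals on either strand (GAGGAA or TTCCTC), as the 250 bases before the start of the gene in RefSeq (GRCm38.p6), written 5′ to 3′ on the strand of the gene.
Mrc1, chr2:14229164-14229413, plus strand: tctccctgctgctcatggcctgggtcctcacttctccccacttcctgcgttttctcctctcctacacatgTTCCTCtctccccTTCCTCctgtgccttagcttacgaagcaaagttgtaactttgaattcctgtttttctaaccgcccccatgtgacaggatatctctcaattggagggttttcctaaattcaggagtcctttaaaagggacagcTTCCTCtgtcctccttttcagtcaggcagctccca
Cd68, chr11:69666171-69666420, minus strand: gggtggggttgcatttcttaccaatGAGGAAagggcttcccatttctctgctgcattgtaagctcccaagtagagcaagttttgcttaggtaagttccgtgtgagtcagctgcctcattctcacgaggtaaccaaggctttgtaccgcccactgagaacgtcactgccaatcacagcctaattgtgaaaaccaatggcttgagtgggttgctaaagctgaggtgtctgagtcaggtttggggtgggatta
The first holds 3 matches and the second 1. Of the 8 called macrophage genes with a promoter in the table, 5 hold a match (C1qb, C1qc, Cd68, Ctss and Mrc1), as do 8 of all 13 list members with a promoter, called or not, and 23.3% of 32851 promoters. A gene was counted if any of its promoters held a match, whereas the 23.3% is a share of promoters, so the 2 measures are unlike. A match of letters is a description and not a binding site.

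Other immune lists had smaller shares called than the 11.0% and 9.31% of all genes. Of 12 tested genes of lymphocytes, mast cells and neutrophils, 0 were called, and 0 had an unadjusted P under 0.05, though 10 had a log2 FC below 0 and the median was -0.58. DESeq2 likewise called 0 of them, whereas leaving out HSA-LR mouse 2 gave 3 lower calls and leaving out WT mouse 2 gave 1. Ptprc, the pan-leukocyte marker CD45, lay at 1.86, 0.829 and 1.5 CPM in WT mice and 1.77, 2.66 and 1.84 CPM in HSA-LR mice (log2 FC 0.58 ± 0.30, adjusted P = 0.24). Ly6g, a defining marker of neutrophils, had 0 counts in the 6 libraries, and the list had a summed level of 6.5 to 9.8 CPM in WT and 4.9 to 10.2 CPM in HSA-LR mice. Of 14 genes of antigen presentation, 0 were called by either tool, and 0 had an unadjusted P under 0.05. Interferon-stimulated genes gave 1 higher and 1 lower call in 21: the RNA sensor Ifih1 (log2 FC 1.01 ± 0.17, adjusted P = 0.0058, adjusted P = 0.114 with the largest bin of each gene) and the protease Usp18 (log2 FC -1.31 ± 0.26, adjusted P = 0.0119), which fell.

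Cytokines and chemokines gave 2 higher calls and 1 lower call in 20, with a median log2 FC of 0.59 and 15 above 0, and 6 higher calls without HSA-LR mouse 2. Tgfb3, a growth factor that drives matrix production, lay at 24.7, 25.2 and 26.9 CPM in WT mice and 58.3, 54.6 and 46.9 CPM in HSA-LR mice (log2 FC 1.06 ± 0.10, adjusted P = 0.000345). Cxcl12, a chemokine of stromal cells, lay at 47.4, 54.6 and 55.0 CPM in WT mice and 34.1, 32.6 and 30.1 CPM in HSA-LR mice (log2 FC -0.70 ± 0.11, adjusted P = 0.00528). The groups did not overlap in either gene, and the changes were opposite. The eosinophil chemokine Ccl11 was called at log2 FC 0.58 and lost its call without WT mouse 2 (adjusted P = 0.137), HSA-LR mouse 1 (0.153) or HSA-LR mouse 2 (0.138).

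**Figure D3:**
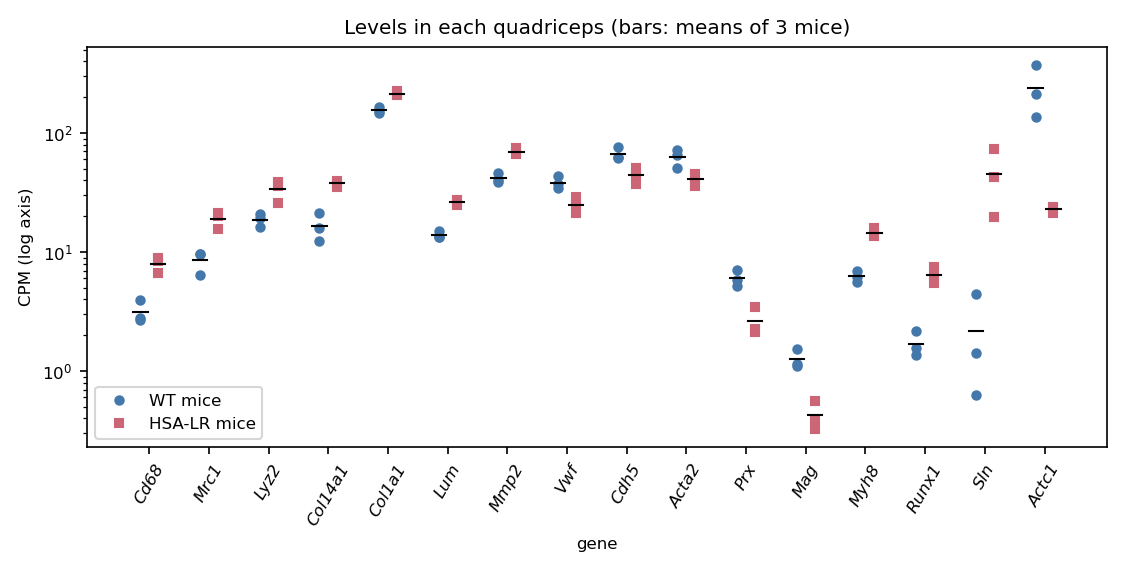
CPM on a log axis (y axis) of 16 genes (x axis) in each WT mouse (blue circles) and HSA-LR mouse (red squares), with bars at the means of 3 mice. Macrophage and matrix genes from Cd68 to Mmp2 lie higher in HSA-LR mice, vessel and Schwann cell genes from Vwf to Mag lower, and Actc1 and Sln lie furthest apart in opposite directions.

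Matrix genes rose in HSA-LR quadriceps. Of 21 collagens tested, 9 were called higher and 0 lower, with a median log2 FC of 0.48. Col14a1, a collagen that binds the surface of fibrils, lay at 21.4, 15.8 and 12.4 CPM in WT mice and 35.5, 39.7 and 38.3 CPM in HSA-LR mice (log2 FC 1.19 ± 0.23, adjusted P = 0.0102). Col1a2, a chain of type I collagen, lay at 269, 268 and 218 CPM in WT mice and 366, 361 and 354 CPM in HSA-LR mice (log2 FC 0.52 ± 0.12, adjusted P = 0.0235). Col6a1 (log2 FC 0.62 ± 0.15, adjusted P = 0.0235) and Col6a2 (log2 FC 0.68 ± 0.17, adjusted P = 0.0318), chains of the type VI collagen that surrounds fibers, rose by similar amounts. The other calls were Col5a1, Col5a2, Col5a3, Col1a1 and Col16a1, at log2 FC 0.46 to 0.81, named after their values were seen except Col1a1, a marker named by rule (166, 148 and 153 CPM in WT mice and 225, 211 and 208 CPM in HSA-LR mice). The collagen score was -0.01, -0.01 and 0.02 in WT mice and 0.42, 0.46 and 0.30 in HSA-LR mice. The difference was 0.39 with no overlap (SD 0.01 in WT and 0.08 in HSA-LR mice). Leaving out WT mouse 2, HSA-LR mouse 1 or HSA-LR mouse 2 left 5, 4 and 5 collagens called.

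Fibroblast genes gave 4 higher and 0 lower calls in 13, with a median log2 FC of 0.41. Lum, the proteoglycan lumican, lay at 13.3, 13.4 and 15 CPM in WT mice and 24.9, 26.8 and 27.2 CPM in HSA-LR mice (log2 FC 0.92 ± 0.10, adjusted P = 0.000689). Gsn, gelsolin, which is abundant in muscle fibroblasts, lay at 1059, 819 and 708 CPM in WT mice and 1486, 1523 and 1198 CPM in HSA-LR mice (log2 FC 0.70 ± 0.16, adjusted P = 0.0209). Neither gene overlapped between the groups. Fap (log2 FC 0.62 ± 0.16, adjusted P = 0.0344) and Clec3b (log2 FC 0.58 ± 0.17, adjusted P = 0.0487) were called too, and lost the call in some fits that left out a mouse: without WT mouse 2, for example, at adjusted P = 0.103 and 0.11.

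In the list of matrix and remodeling genes, 8 of 31 were called higher and 3 lower, with a median log2 FC of 0.37. Mmp2, a protease that cuts basement membrane collagen, lay at 46.3, 40.5 and 39.1 CPM in WT mice and 75.4, 66.9 and 66.7 CPM in HSA-LR mice (log2 FC 0.73 ± 0.10, adjusted P = 0.00258). Its inhibitor Timp1 lay at 0.634, 0.370 and 0.918 CPM in WT mice and 1.58, 2.13 and 2.26 CPM in HSA-LR mice (log2 FC 1.63 ± 0.30, adjusted P = 0.0095). Both thus rose together, and the groups did not overlap in either. Lama2, the laminin chain of the muscle basement membrane (log2 FC 0.77 ± 0.13, adjusted P = 0.00661), and the proteoglycan Bgn (log2 FC 0.84 ± 0.16, adjusted P = 0.00953) rose as well. The 3 lower calls were Timp3 (-0.42), the collagen prolyl hydroxylase subunit P4ha2 (-0.74) and elastin, Eln (-0.91), named after their values were seen. Without WT mouse 2, HSA-LR mouse 1 or HSA-LR mouse 2, 5, 4 and 5 members were called higher. Tendon genes gave 2 higher calls and 1 lower call in 10, and 0 higher calls when WT mouse 1 or any 1 HSA-LR mouse was left out. Thbs4, a thrombospondin of tendon and of muscle attachment, lay at 46.8, 71.5 and 108 CPM in WT mice and 186, 136 and 131 CPM in HSA-LR mice (log2 FC 1.0 ± 0.33, adjusted P = 0.0775), with adjusted P = 0.174 without WT mouse 1.

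Endothelial genes fell. Of 13 tested, 8 were called lower and 0 higher, the median log2 FC was -0.55, and all 13 had a log2 FC below 0. Vwf, the clotting factor stored by endothelial cells, lay at 37.2, 34.8 and 43.3 CPM in WT mice and 29.2, 24.5 and 21.5 CPM in HSA-LR mice (log2 FC -0.62 ± 0.13, adjusted P = 0.0169, adjusted P = 0.104 with the largest bin of each gene). Eng, a co-receptor for growth factors of the TGF-β family, lay at 69.3, 61.2 and 99.7 CPM in WT mice and 48.9, 45.1 and 40.6 CPM in HSA-LR mice (log2 FC -0.78 ± 0.19, adjusted P = 0.0284). Cdh5, the cadherin of endothelial junctions, lay at 63.2, 61.9 and 76.7 CPM in WT mice and 51.1, 44.6 and 37.2 CPM in HSA-LR mice (log2 FC -0.60 ± 0.15, adjusted P = 0.0316). WT mouse 3 was the highest mouse in each of these genes, and the remaining WT mice also lay above the HSA-LR mice. The junction protein Esam was called (log2 FC -0.68 ± 0.17, adjusted P = 0.0307), and Pecam1, which encodes CD31, lay at 71.8, 66.1 and 92.5 CPM in WT mice and 53.9, 49.8 and 56.4 CPM in HSA-LR mice (log2 FC -0.53 ± 0.16, adjusted P = 0.0652), with adjusted P = 0.187 without WT mouse 3. Summed CPM of the list was 447 to 609 in WT and 308 to 367 in HSA-LR mice. Without WT mouse 3 or HSA-LR mouse 2, 5 and 4 members were called.

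Genes of smooth muscle and pericytes gave 6 lower calls and 1 higher call in 12, with a median log2 FC of -0.40. The list score was 0.0002, -0.22 and 0.22 in WT mice and -0.12, -0.32 and -0.18 in HSA-LR mice, so the groups overlapped. Acta2, the actin of vascular smooth muscle, lay at 66.0, 50.4 and 72.6 CPM in WT mice and 45.7, 35.8 and 41.5 CPM in HSA-LR mice (log2 FC -0.62 ± 0.14, adjusted P = 0.0214). Myh11, its myosin heavy chain, lay at 43.1, 40.4 and 50.0 CPM in WT mice and 30.6, 27.2 and 32.0 CPM in HSA-LR mice (log2 FC -0.57 ± 0.13, adjusted P = 0.0194), and Mylk, the kinase of its light chain, fell by 0.67 on the log2 scale. These 3 genes of the contractile apparatus moved the same way. Cspg4, the proteoglycan NG2 of pericytes, was the member called higher, at 12.2, 5.86 and 8.17 CPM in WT mice and 19.2, 20.0 and 15.1 CPM in HSA-LR mice (log2 FC 1.04 ± 0.28, adjusted P = 0.0385), with adjusted P = 0.111 without HSA-LR mouse 2. Without WT mouse 3, HSA-LR mouse 2 or HSA-LR mouse 3, 3 members were called lower. Rgs5 and Notch3, which pericytes also express, were called lower (log2 FC -0.45 and -0.36, named after their values were seen), so the pericyte markers did not move together.

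Schwann cell genes fell as well, with 6 lower calls and 1 higher call in 13 and a median log2 FC of -0.54. Mag, an adhesion protein of myelin, lay at 1.11, 1.15 and 1.53 CPM in WT mice and 0.564, 0.326 and 0.398 CPM in HSA-LR mice (log2 FC -1.56 ± 0.24, adjusted P = 0.00426). Prx, periaxin, which stabilizes the myelin sheath, lay at 5.84, 5.23 and 7.05 CPM in WT mice and 3.45, 2.27 and 2.13 CPM in HSA-LR mice (log2 FC -1.21 ± 0.24, adjusted P = 0.0119). HSA-LR mouse 1 kept the highest level among the HSA-LR mice in both genes and still lay below every WT mouse. Sox10, the lineage factor of Schwann cells, and Mbp were also called lower (log2 FC -1.08 and -0.75, named after their values were seen). Erbb3, the neuregulin receptor of Schwann cells, was called higher (log2 FC 0.57 ± 0.15, adjusted P = 0.0368, adjusted P = 0.11 without WT mouse 1). The list score was 0.07, -0.10 and 0.04 in WT mice and -0.27, -0.50 and -0.84 in HSA-LR mice. Without WT mouse 3 or HSA-LR mouse 2, 3 members were called lower. How much nerve each piece of muscle held was not tested.

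**Figure D4:**
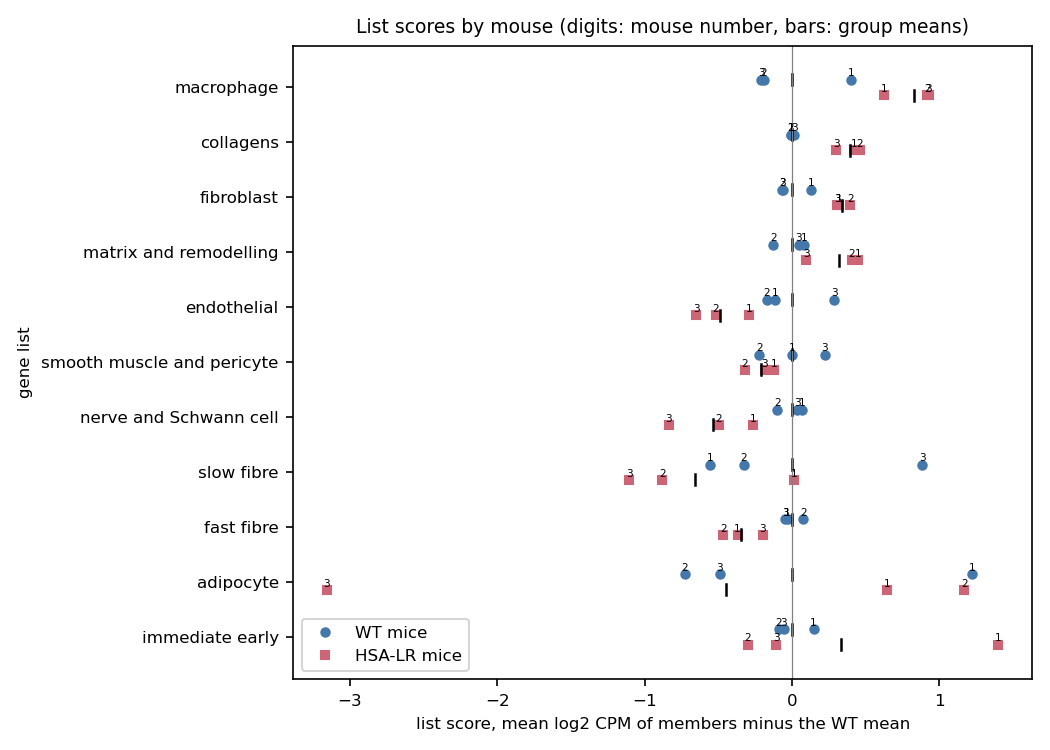
Scores of 11 gene lists (y axis) in each mouse, as the mean log2 CPM of the members minus the mean of the WT mice (x axis). Blue circles are WT and red squares HSA-LR mice, digits give the mouse number and bars the group means. Groups are apart for macrophage genes, collagens, endothelial and Schwann cell genes, while HSA-LR mouse 3 lies at -3.16 for adipocyte genes and HSA-LR mouse 1 at 1.40 for immediate early genes.

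Slow fiber genes had low values in HSA-LR quadriceps without passing the test. Of 16 members, 12 had a log2 FC below 0 and the median was -0.89, but 1 was called higher and 1 lower. Myh7, the myosin heavy chain of slow fibers, lay at 8.78, 14.3 and 93.4 CPM in WT mice and 13.8, 3.66 and 3.66 CPM in HSA-LR mice (log2 FC -2.47 ± 1.34, adjusted P = 0.271). Tnnt1, the slow troponin T, lay at 21.2, 21.3 and 94.7 CPM in WT mice and 16.1, 5.36 and 3.83 CPM in HSA-LR mice (log2 FC -2.44 ± 1.07, adjusted P = 0.172). WT mouse 3 was far above the remaining mice in both genes. The groups overlapped in Myh7, where HSA-LR mouse 1 lay above WT mouse 1, and did not overlap in Tnnt1. The slow fiber score was -0.56, -0.33 and 0.88 in WT mice and 0.01, -0.88 and -1.10 in HSA-LR mice. The difference was -0.66 (SD 0.77 in WT and 0.59 in HSA-LR mice) and went to -0.22 without WT mouse 3. Summed CPM of the list did not follow the score, at 1175 to 2479 in WT and 1839 to 2584 in HSA-LR mice, with Actn2, an α-actinin of the Z-disc, as its most counted member, named after its values were seen (893, 818 and 1513 CPM in WT mice and 1755, 1513 and 2242 CPM in HSA-LR mice, log2 FC 0.77 ± 0.36, adjusted P = 0.196).

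Sln was the slow fiber gene called higher. It encodes sarcolipin, a small inhibitor of the sarcoplasmic reticulum calcium pump, and lay at 0.625, 4.43 and 1.43 CPM in WT mice and 73.3, 42.4 and 19.6 CPM in HSA-LR mice (log2 FC 4.38 ± 0.75, adjusted P = 0.0067). The 3 HSA-LR mice were spread widely, and the lowest of them lay above the highest WT mouse. Myh7b was the lower call (log2 FC -1.91 ± 0.66, adjusted P = 0.0919), and the call was lost when any 1 WT mouse was left out (adjusted P = 0.22 without WT mouse 3) and also when HSA-LR mouse 2 or 3 was left out.

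Of 16 fast fiber genes, 6 were called lower and 0 higher, with log2 FC from -1.72 to 0.94 and a median of -0.30. Tnnt3, the fast troponin T, fell by 0.68 on the log2 scale (SE 0.13, adjusted P = 0.00952), and the fast troponin C, Tnnc2, fell by 0.53 (SE 0.13, adjusted P = 0.0248). Myh2, the myosin of type 2A fibers, lay at 1304, 1293 and 1997 CPM in WT mice and 599.9, 396 and 401 CPM in HSA-LR mice (log2 FC -1.72 ± 0.42, adjusted P = 0.0273). That call rests on the sum of bins, since the largest bin of the gene gave a log2 FC of 0.15. Myh4, the myosin of type 2B fibers, lay at 49861, 64695 and 44546 CPM in WT mice and 45669, 43184 and 46133 CPM in HSA-LR mice (log2 FC -0.24 ± 0.16, adjusted P = 0.397), and Myh1, that of type 2X fibers, at 4427, 4070.3 and 5991 CPM in WT mice and 5294, 8384 and 14111 CPM in HSA-LR mice (log2 FC 0.94 ± 0.34, adjusted P = 0.105). HSA-LR mouse 3 was the highest mouse in Myh1, and neither gene passed the test. Without WT mouse 2 or HSA-LR mouse 2, 3 members were called lower. Ckm, the creatine kinase of muscle, fell by 0.47 (24179, 24479 and 24636 CPM in WT mice and 18080.0, 16176 and 18725 CPM in HSA-LR mice, adjusted P = 0.0312). Acta1, the endogenous skeletal actin, showed log2 FC 0.01 (adjusted P = 0.964), and whether reads of the human transgene counted on it was not tested.

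Genes of development and denervation gave 7 higher and 2 lower calls in 19, and 1 lower call when WT mouse 3 or any 1 HSA-LR mouse was left out. Myh8, the perinatal myosin, lay at 6.23, 5.56 and 6.97 CPM in WT mice and 13.6, 14.1 and 15.8 CPM in HSA-LR mice (log2 FC 1.21 ± 0.11, adjusted P = 0.000325, adjusted P = 0.112 with the largest bin of each gene). Runx1, a transcription factor that denervated muscle turns on, lay at 1.58, 2.16 and 1.36 CPM in WT mice and 6.18, 5.55 and 7.44 CPM in HSA-LR mice (log2 FC 1.91 ± 0.20, adjusted P = 0.000678). Ncam1, a cell adhesion molecule of immature and denervated fibers, lay at 11.0, 11.8 and 14.5 CPM in WT mice and 25.6, 22.3 and 34.2 CPM in HSA-LR mice (log2 FC 1.13 ± 0.17, adjusted P = 0.00321). None of the 3 overlapped between the groups. Actc1, the cardiac actin of fetal muscle, went the other way, at 136, 211 and 372 CPM in WT mice and 21.3, 23.7 and 24.0 CPM in HSA-LR mice (log2 FC -3.38 ± 0.51, adjusted P = 0.00367). Myog, the myogenic factor that also rises with denervation, was called lower (log2 FC -0.93 ± 0.32, adjusted P = 0.0881), whereas Myod1 (log2 FC 0.87 ± 0.23, adjusted P = 0.0382) and the satellite cell factor Pax7 (log2 FC 0.99 ± 0.28, adjusted P = 0.0484) were called higher. Myog and Myod1 were named after their values were seen. The embryonic myosin Myh3 had log2 FC 0.94 (adjusted P = 0.108). Pax7 had adjusted P = 0.12 without WT mouse 1, 0.119 without HSA-LR mouse 1 and 0.108 without HSA-LR mouse 3.

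Fat genes followed single mice and not the groups. Of 20 adipocyte genes, 0 were called, 0 had an unadjusted P under 0.05, and DESeq2 called 0 as well. Adipoq, the fat hormone adiponectin, lay at 87.0, 23.2 and 28.1 CPM in WT mice and 66.9, 84.7 and 3.62 CPM in HSA-LR mice (log2 FC 0.17 ± 0.91, adjusted P = 0.937). Plin1, the coat protein of the lipid droplet, lay at 185, 40.6 and 32.2 CPM in WT mice and 125, 189 and 3.36 CPM in HSA-LR mice (log2 FC 0.30 ± 1.08, adjusted P = 0.899). WT mouse 1 and HSA-LR mice 1 and 2 were high in both genes, and HSA-LR mouse 3 was the lowest. The adipocyte score differed by -0.45 (SD 1.06 in WT and 2.36 in HSA-LR mice), by 0.91 without HSA-LR mouse 3 and by 0.16 without WT mouse 1. The median log2 FC of the members was 0.12, opposite in sign to the score. Every member had counts in every library.

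Genes of membrane excitability moved in both directions, with 6 higher and 6 lower calls in 25, or 24% each way. Clcn1, the chloride channel that steadies the resting membrane potential, lay at 297, 373 and 269 CPM in WT mice and 174, 157 and 175 CPM in HSA-LR mice (log2 FC -0.89 ± 0.15, adjusted P = 0.00535). Kcnn3, a small-conductance potassium channel gated by calcium, which immature and denervated fibers express, lay at 0.757, 1.28 and 1.84 CPM in WT mice and 11.3, 11.0 and 14.8 CPM in HSA-LR mice (log2 FC 3.26 ± 0.29, adjusted P = 0.000326). The groups were apart in both channels. Cacng1, a subunit of the voltage sensor of the T-tubule, rose (log2 FC 0.83 ± 0.13, adjusted P = 0.00523). The sodium channel Scn4a (-0.62) and its subunit Scn4b (-0.51) fell, whereas Kcna7 (0.51), Kcnj2 (0.74), Kcnc4 (0.72) and Kcnn2 (0.62) rose, all named after their values were seen. Without WT mouse 1 or HSA-LR mouse 3, 3 members were called higher.

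Calcium handling of the sarcoplasmic reticulum gave 5 higher and 3 lower calls in 24. Higher calls were 3 without WT mouse 1, WT mouse 2 or HSA-LR mouse 3 and 2 without HSA-LR mouse 1. Sln led them. Cav3, the caveolin of muscle, rose (log2 FC 0.64 ± 0.11, adjusted P = 0.00579), and Bin1, which shapes the T-tubule, lay at 739, 770.0 and 755 CPM in WT mice and 986, 899 and 1014 CPM in HSA-LR mice (log2 FC 0.36 ± 0.10, adjusted P = 0.0437, adjusted P = 0.144 without HSA-LR mouse 1). Mrln (-0.60), a small inhibitor of the calcium pump, the release channel Ryr1 (-0.40) and the pump Atp2a1 (-0.46) were called lower, and no member was called lower without WT mouse 2, HSA-LR mouse 1 or HSA-LR mouse 2 (5 without HSA-LR mouse 3). The median log2 FC of the list was -0.18 and its score difference 0.08, opposite in sign. The pump inhibitors Sln and Mrln went in opposite directions, Mrln and Ryr1 being named after their values were seen.

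Calcium and calmodulin signaling gave 5 higher and 2 lower calls in 27. Camk2d, a chain of calmodulin kinase II, lay at 53.6, 59.7 and 62.3 CPM in WT mice and 166, 136 and 152 CPM in HSA-LR mice (log2 FC 1.37 ± 0.0938, adjusted P = 8.92e-05). Camk1d, a kinase of the same family, lay at 3.18, 4.0 and 1.71 CPM in WT mice and 16.9, 24.4 and 24.8 CPM in HSA-LR mice (log2 FC 2.89 ± 0.30, adjusted P = 0.000599), and Nfatc2, a factor that calcineurin moves to the nucleus, at 13.4, 13.3 and 9.21 CPM in WT mice and 42.9, 40.1 and 35.5 CPM in HSA-LR mice (log2 FC 1.72 ± 0.25, adjusted P = 0.00309). The HSA-LR mice lay more than 2-fold above the highest WT mouse in each. The number of higher calls was 5 in every alternative, and lower calls were 4 without HSA-LR mouse 3.

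Genes of the dystrophin complex and costamere gave 9 higher calls and 1 lower call in 21, with a median log2 FC of 0.32. Sntb1, a syntrophin, lay at 3.26, 1.74 and 1.73 CPM in WT mice and 16.9, 16.1 and 13.2 CPM in HSA-LR mice (log2 FC 2.78 ± 0.25, adjusted P = 0.000325). Itgb1, the integrin β1 chain, lay at 189, 194 and 202 CPM in WT mice and 323, 303 and 349 CPM in HSA-LR mice (log2 FC 0.74 ± 0.0776, adjusted P = 0.000701), and Sspn, sarcospan, rose by 0.56 on the log2 scale. The lower call was Itga7, the α chain that pairs with Itgb1 on fibers (log2 FC -0.47 ± 0.0842, adjusted P = 0.00778). Itga7 is also in the lists of tendon and of satellite cell genes and counts among the lower calls of each. Dmd, dystrophin, lay at 70.2, 106 and 82.6 CPM in WT mice and 92.0, 104 and 122 CPM in HSA-LR mice (log2 FC 0.30 ± 0.15, adjusted P = 0.232). Dystrophin did not pass the test, but its log2 FC was close to the list median of 0.32. Whether it changed less than its partners was not tested.

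Scaffold genes of the sarcomere and Z-disc gave 8 higher and 3 lower calls in 31, with 1 lower call when HSA-LR mouse 2 was left out and 5 without HSA-LR mouse 3. Ankrd1, a stress-responsive ankyrin repeat protein of the sarcomere, lay at 2.49, 3.40 and 6.02 CPM in WT mice and 16.8, 11.4 and 26.3 CPM in HSA-LR mice (log2 FC 2.19 ± 0.46, adjusted P = 0.0147). Flnc, filamin C, lay at 925, 745 and 1217 CPM in WT mice and 2608, 2077 and 3182 CPM in HSA-LR mice (log2 FC 1.45 ± 0.26, adjusted P = 0.00791), and Pdlim3, a PDZ-LIM protein of the Z-disc, at 511, 574 and 608 CPM in WT mice and 1072, 944 and 1224 CPM in HSA-LR mice (log2 FC 0.94 ± 0.13, adjusted P = 0.00247). Every HSA-LR mouse lay above every WT mouse in these genes.

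The MCAT element CATTCC binds TEAD factors and occurs in promoters of muscle genes. It was looked for on both strands (CATTCC or GGAATG) in the 250 bases before the start of these genes, which rose together, and 2 promoters are shown with it in capitals, in the same format.
Ankrd1, chr19:36119845-36120094, minus strand: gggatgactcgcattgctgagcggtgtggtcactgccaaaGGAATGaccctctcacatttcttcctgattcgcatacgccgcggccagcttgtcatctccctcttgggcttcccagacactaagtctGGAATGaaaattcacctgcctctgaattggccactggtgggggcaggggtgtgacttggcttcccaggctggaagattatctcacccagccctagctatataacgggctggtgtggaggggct
Pdlim3, chr8:45885237-45885486, plus strand: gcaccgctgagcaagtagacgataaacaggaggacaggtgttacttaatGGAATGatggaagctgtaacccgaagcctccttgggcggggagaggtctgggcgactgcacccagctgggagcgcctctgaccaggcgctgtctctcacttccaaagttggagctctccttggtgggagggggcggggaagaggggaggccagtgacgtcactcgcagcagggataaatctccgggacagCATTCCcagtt
Each holds 2 matches. Of the 6 called higher members with a promoter in the table, 3 hold one (Ankrd1, Flnc and Pdlim3), as do 5 of all 23 list members with a promoter and 12.6% of all promoters. Genes were again counted by any of their promoters, and the 12.6% by promoter. Protein and binding of TEAD factors were not measured here, and their RNA levels are not described.

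Stress genes gave 7 higher and 6 lower calls in 31. Among the small heat shock proteins, Hspb1 lay at 117, 83.2 and 128 CPM in WT mice and 345, 246 and 412 CPM in HSA-LR mice (log2 FC 1.61 ± 0.21, adjusted P = 0.00172) and Hspb7, which binds filamin C, at 142, 106 and 286 CPM in WT mice and 896, 629 and 1080.5 CPM in HSA-LR mice (log2 FC 2.29 ± 0.45, adjusted P = 0.0124). Xbp1, a factor of the unfolded protein response, rose (log2 FC 0.62 ± 0.13, adjusted P = 0.0146). By contrast Aldh1l2, a mitochondrial folate enzyme under Atf4, fell (log2 FC -1.15 ± 0.26, adjusted P = 0.0215). Ddit4 (-1.42), Trib3 (-0.86) and Chac1 (-1.36), which the same pathway is known to induce, were called lower too, named after their values were seen. The number of lower calls went to 2 when HSA-LR mouse 1 or 2 was left out and to 1 without WT mouse 1. Immediate early genes gave 4 higher calls in 23, but 1 without WT mouse 2 or 3, 2 without HSA-LR mouse 1 and 7 without HSA-LR mouse 2. Atf3 lay at 23.2, 8.88 and 19.0 CPM in WT mice and 107, 30.7 and 67.1 CPM in HSA-LR mice (log2 FC 2.0 ± 0.47, adjusted P = 0.0235) and Jun, a subunit of AP-1, at 51.5, 45.1 and 49.7 CPM in WT mice and 147, 65.9 and 71.4 CPM in HSA-LR mice (log2 FC 0.96 ± 0.27, adjusted P = 0.0475, adjusted P = 0.109 without WT mouse 3). HSA-LR mouse 1 was the highest in both. The score of the list differed by 0.33, and by -0.20 without HSA-LR mouse 1.

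Lists of energy metabolism had 0% to 14.3% of members called lower, against 9.31% of all genes. Higher calls made up 0% to 9.68%, against 11.0% of all genes. Of 81 nuclear genes of oxidative phosphorylation, 0 were called higher and 5 lower, with 63 below 0 and a median log2 FC of -0.11. Cox8b, a cytochrome oxidase subunit, lay at 143, 128 and 155 CPM in WT mice and 89.0, 102 and 106 CPM in HSA-LR mice (log2 FC -0.52 ± 0.10, adjusted P = 0.0107). The count of lower calls was 1 without WT mouse 3 or HSA-LR mouse 1, 2 without WT mouse 1, but 13 when HSA-LR mouse 3 was left out. The 6 mitochondrial genes tested gave 0 calls and 0 unadjusted P under 0.05, and DESeq2 called 0 of them, while 1 was called lower without HSA-LR mouse 3. Citrate cycle genes gave 3 lower calls in 25, with 1 when HSA-LR mouse 1 or 2 was left out and 0 without WT mouse 3. Fatty acid genes gave 4 lower and 0 higher calls in 28, led by Mlycd, malonyl-CoA decarboxylase (log2 FC -0.58 ± 0.10, adjusted P = 0.00579), and by Fabp3, the fatty acid-binding protein of oxidative muscle, at 257, 245 and 425 CPM in WT mice and 132, 104 and 129 CPM in HSA-LR mice (log2 FC -1.35 ± 0.31, adjusted P = 0.0215). The count went from 2 without WT mouse 1 or 3 or HSA-LR mouse 1 or 3 to 8 when HSA-LR mouse 2 was left out and 9 without WT mouse 2. Glycolysis and glycogen genes gave 3 calls each way in 31, with 0 lower calls without WT mouse 1 or HSA-LR mouse 1, 1 without WT mouse 3 or HSA-LR mouse 2, and 1 higher call without WT mouse 1 or HSA-LR mouse 3. Glycogen synthase Gys1 was higher (log2 FC 0.48 ± 0.12, adjusted P = 0.026) and glycogen phosphorylase Pygm lower (log2 FC -0.43 ± 0.12, adjusted P = 0.0503, adjusted P = 0.136 without HSA-LR mouse 2).

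Genes of insulin, IGF and myostatin signaling gave 4 higher and 6 lower calls in 36, with 1 higher call without WT mouse 3, HSA-LR mouse 1 or HSA-LR mouse 3 and 2 without HSA-LR mouse 2. Igfbp5, a binding protein of insulin-like growth factors, lay at 842, 947 and 657 CPM in WT mice and 232, 194 and 185 CPM in HSA-LR mice (log2 FC -2.0 ± 0.19, adjusted P = 0.000447, chr1:72857932-72874884). Smad3, a messenger of TGF-β and myostatin, lay at 86.5, 92.7 and 105 CPM in WT mice and 48.3, 51.8 and 44.0 CPM in HSA-LR mice (log2 FC -0.98 ± 0.14, adjusted P = 0.0034). Acvr2a, a receptor of activin and myostatin, lay at 40.4, 54.5 and 24.4 CPM in WT mice and 11.9, 12.7 and 14.4 CPM in HSA-LR mice (log2 FC -1.62 ± 0.24, adjusted P = 0.00376). Its ligand Mstn, myostatin, fell by 0.76 (adjusted P = 0.0198, named after its value was seen), and the related Gdf11 rose (log2 FC 1.18 ± 0.23, adjusted P = 0.0119). Insr, the insulin receptor, had log2 FC 0.00. In the list of atrogenes, which are turned on in wasting muscle, 6 of 26 were called lower and 0 higher, with Klf15 (log2 FC -0.76 ± 0.11, adjusted P = 0.00367), Map1lc3b (log2 FC -0.45 ± 0.0816, adjusted P = 0.00867) and the ubiquitin ligase subunit Fbxo31 (log2 FC -0.52 ± 0.11, adjusted P = 0.0177) first. Without HSA-LR mouse 1 or 2, 3 were called lower. Autophagy and lysosome genes split 5 and 5 in 33. Their higher calls were 1 without WT mouse 3, 2 when any 1 HSA-LR mouse was left out and 3 without WT mouse 1 or 2, and their lower calls 1 without WT mouse 1 or HSA-LR mouse 1 and 3 without HSA-LR mouse 2. Proteasome genes gave 2 higher calls and 1 lower call in 39, and 1 higher call without WT mouse 2, WT mouse 3, HSA-LR mouse 1 or HSA-LR mouse 3.

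Satellite cell genes gave 2 calls each way in 13, with Vcam1 higher, and 0 higher calls without HSA-LR mouse 1, 1 higher call without WT mouse 1 and 1 lower call without WT mouse 3. Cell cycle genes gave 2 higher and 3 lower calls in 24, with Birc5, a protein of dividing cells, at 0.167, 0.0353 and 0.156 CPM in WT mice and 0.870, 1.03 and 1.19 CPM in HSA-LR mice (log2 FC 3.10 ± 0.43, adjusted P = 0.00248). Lower calls of that list were 1 when WT mouse 1, WT mouse 2 or any 1 HSA-LR mouse was left out. Erythroid genes gave 0 calls in 9 and 1 lower call by DESeq2, with 1 unadjusted P under 0.05. Clock genes gave 1 lower call in 19 (Nfil3, log2 FC -1.01 ± 0.28, adjusted P = 0.043), with 0 when HSA-LR mouse 1 or 2 was left out and 3 without WT mouse 3.

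RNA-binding proteins that control splicing gave 3 higher and 6 lower calls in 35, and 3 lower calls without HSA-LR mouse 2. Celf2, of the CELF family that opposes MBNL1, lay at 59.1, 76.3 and 55.1 CPM in WT mice and 36.0, 41.6 and 33.4 CPM in HSA-LR mice (log2 FC -0.78 ± 0.14, adjusted P = 0.007). Celf4 was called higher from a low level, at 0.00881, 0.115 and 0.173 CPM in WT mice and 0.509, 0.790 and 0.542 CPM in HSA-LR mice (log2 FC 2.62 ± 0.61, adjusted P = 0.0227). Mbnl1 itself lay at 311, 405 and 298 CPM in WT mice and 289.7, 299.6 and 348 CPM in HSA-LR mice (log2 FC -0.11 ± 0.13, adjusted P = 0.636). Srsf6, an SR protein, fell (log2 FC -0.32 ± 0.0692, adjusted P = 0.0178) and Hnrnpa1 rose (log2 FC 0.32 ± 0.0717, adjusted P = 0.0194). Dmpk, the gene whose repeat causes the human disease, rose in the mouse (log2 FC 0.52 ± 0.15, adjusted P = 0.0477), with adjusted P = 0.139 without WT mouse 1. Ribosomal proteins gave 11 higher and 0 lower calls in 64, at a median log2 FC of 0.16, and 1 call without WT mouse 2 or HSA-LR mouse 3, 2 without HSA-LR mouse 1, 3 without WT mouse 1 and 5 without WT mouse 3. Their pseudogenes can share reads.

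The gastrocnemius of the same mice was tested the same way, with 15625 genes, 1343 called higher (8.6%) and 1084 lower (6.94%). Of the 3169 genes called in the quadriceps, 1615 were called in the same direction in the gastrocnemius (51.0% of the quadriceps calls and 66.5% of the gastrocnemius calls), and 1 in the opposite direction. The dystrophin complex had 9 higher calls in quadriceps and 10 in gastrocnemius, with medians of 0.32 and 0.25. Macrophage genes had 11 higher calls in quadriceps and 3 in gastrocnemius, with medians of 0.75 and -0.03. Endothelial genes had 8 lower calls and 1, and Schwann cell genes 6 and 0. The numbers of calls alone do not show that the muscles differ.

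**Figure D5:**
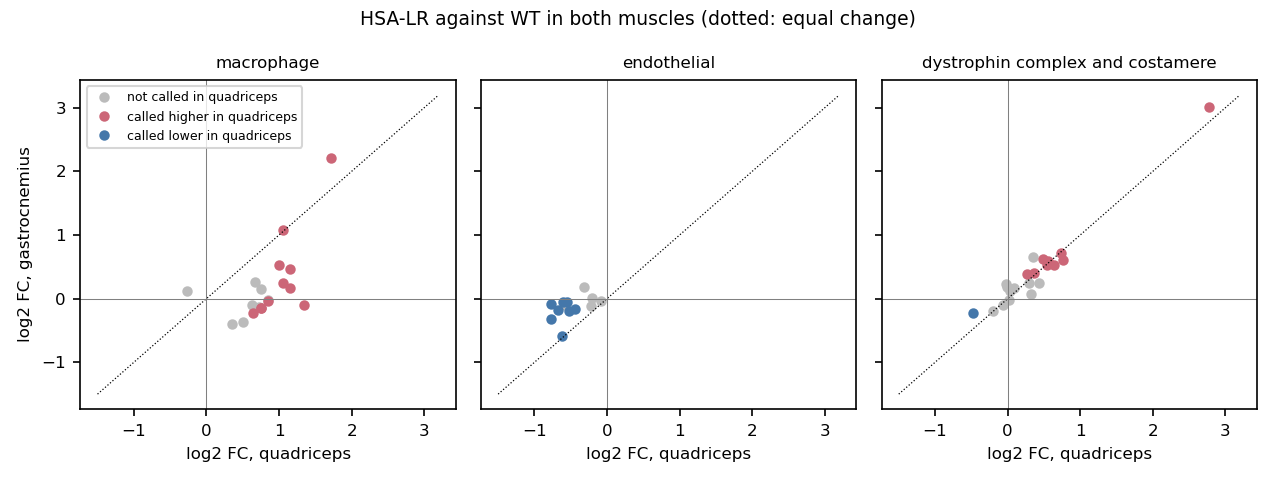
Log2 FC of HSA-LR against WT in the quadriceps (x axis) and in the gastrocnemius (y axis) for the members of 3 gene lists, colored by the call in the quadriceps. Most macrophage genes lie below the dotted line of equal change and the endothelial genes on or above it, while members of the dystrophin complex lie on both sides of it.

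The difference between the muscles was tested as an interaction over the 18 libraries. Of 16167 genes, 0 were called (smallest adjusted P = 0.222), while 710 had an unadjusted P under 0.05 and DESeq2 called 24. Among the 19 macrophage genes, 10 had an unadjusted P under 0.05, Cd68, Mrc1 and Lyz2 among them, and 0 passed the adjusted threshold. With the mouse as a block, since both muscles of a number come from 1 mouse, 5 genes (0.0309%) were called, and none of them is in the macrophage list. Neither Mfap3l nor Crip3, named for a small unadjusted interaction P, passed with or without the block (adjusted P = 0.185 with it for both). Mfap3l rose by 0.45 in the quadriceps and fell by 0.77 in the gastrocnemius, which is the gene called in opposite directions. Crip3 lay at 1.69, 1.28 and 1.46 CPM in WT mice and 21.3, 7.40 and 7.77 CPM in HSA-LR mice (log2 FC 3.04 ± 0.40, adjusted P = 0.00205; gastrocnemius log2 FC 0.32, adjusted P = 0.67), with the HSA-LR mice widely spread.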

How the data were processed

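RNA was sequenced from the quadriceps and gastrocnemius after Trizol extraction and polyA selection with a stranded kit. The authors deposited raw counts per exon bin and library. The submitters' processing notes name CASAVA, HISAT, featureCounts 1.5.0 and GRCm38, without stating the role of each. A read pair over several bins counts in each, so bin sums exceed pairs. Bins of no gene (2.82% to 4.14% of counts over the series) were left out.

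Bin counts were summed per gene and fitted with edgeR 4.0.16 (limma 3.58.1, R 4.3.3) over the 9 quadriceps libraries, with TMM scaling and filterByExpr (minimum count 10, total 15). The quasi-likelihood test contrasted HSA-LR with WT, with Benjamini-Hochberg adjustment over all genes and a threshold of 0.1. The muscles were compared in 1 fit of 18 libraries. Scores were mean log2 CPM (prior count 2) of tested members, with no test. Apart from mouse numbers, labels do not say that replicates are more than separate samples. P sets the group difference against the spread between samples within groups, as estimated over all libraries of the fit.

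The named genes were the 4 with the smallest P per list, the 15 higher and 10 lower genes with the smallest P, 6 by the interaction, markers and genes of the study. The members and lists were chosen with earlier results of these data known. Promoters came from RefSeq (GRCm38.p6). The fit was tested on simulated data with 200 of 15574 genes changed, and 49.5% of the changed genes were called. The share was 78.8% of 4-fold, 46.3% of 2-fold and 23.9% of 1.5-fold changes, and 10.8% of calls were false. Many more genes (3169) were called in the data, so these shares do not give the share of real changes that was called. A gene that was not called can still have changed. Alternatives were leaving out each mouse, a replicate block, the 6 libraries alone, the largest bin of a gene, 2 filters, 2 scalings, DESeq2 1.42.0 and limma voom, and, chosen after seeing the data, a 5-to-3 coverage covariate. Mouse numbers did not pair WT with HSA-LR mice (correlations -0.237 to 0.273), while both muscles of a number come from 1 mouse. Columns that no label maps numbered 0. Some genes of these lists are counted but not reported by name here.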

Additional observations from a re-analysis of the deposited data

Results flagged for a closer look

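In 5 genes the change in HSA-LR mice differed between quadriceps and gastrocnemius when the mouse was a block in edgeR's quasi-likelihood test, and none passed in that test without the block. DESeq2 without the block called Dusp14 (adjusted P = 6.01e-05) and Irx5 (adjusted P = 0.000376) among them. Each value is the log2 FC in quadriceps minus that in gastrocnemius. Dkk3, a secreted protein of the Dickkopf family, differed by -1.52 (adjusted P = 0.0151), and Ppp1r1a, an inhibitor of protein phosphatase 1, by -1.02 (adjusted P = 0.0458). Both genes were called lower in each muscle, at log2 FC -4.14 (quadriceps) and -2.63 (gastrocnemius) for Dkk3 and -1.64 and -0.603 for Ppp1r1a. For Dkk3, WT mouse 3 lay at 12.7 CPM in quadriceps and 5.55 CPM in gastrocnemius. The remaining WT mice lay at 52.8 CPM or more and 22.2 CPM or more. For Ppp1r1a, WT mouse 3 was the highest WT mouse in both muscles (85.4 CPM in quadriceps). Dusp14, a phosphatase of MAP kinases, differed by 1.10 (adjusted P = 0.0265). Serpinb1a, a protease inhibitor with close paralogs that can share reads, differed by 1.55 (adjusted P = 0.0265). Its WT quadriceps lay at 2.65, 2.66 and 7.27 CPM, with WT mouse 3 apart. Irx5, a homeobox factor of low level, differed by 7.0 (adjusted P = 0.0265), a fitted value that rests on few counts. The gastrocnemius lay at 2.25, 0.364 and 2.33 CPM in WT mice and 0.0456, 0.0379 and 0 CPM in HSA-LR mice. The quadriceps of both groups lay at 0.0265 to 0.398 CPM. No cause was tested.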

How the results depend on the processing

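The 3169 calls fell to between 2050 (without HSA-LR mouse 1) and 2710 (without HSA-LR mouse 3) when a WT or HSA-LR mouse was left out. Leaving out a treated mouse gave 2636 to 3373 calls. DESeq2 gave 3702 and the added covariate 2745, and no shared call changed sign. Upper-quartile scaling gave 1850 higher and 1224 lower calls. With a replicate block 2857 genes were called, though mouse numbers did not pair WT with HSA-LR mice. The interaction gave 0 to 3 calls when 1 mouse was left out (3 without WT mouse 3), 1 with the largest bin, 24 with DESeq2 and 5 with the replicate block. With 1 mouse left out, the slow fiber score ranged from -0.99 to -0.22 and the adipocyte score from -1.26 to 0.91. Of the 152 genes named by rule that were called, 150 kept their direction in every alternative that gave them a value. The largest bin turned the log2 FC of Myh2 to 0.15, Ldb3 to 0.33, Sos1 to -0.0723, Mbnl1 to 0.0965 and Insr to -0.0189. With 1 mouse left out, it ranged from -0.39 to 1.01 for Adipoq, -0.42 to 1.53 for Plin1, -0.22 to 0.56 for Hbb-bs, -0.0798 to 0.0668 for Acta1, -0.20 to 0.0369 for Mbnl1, -0.0903 to 0.17 for Insr, -0.17 to 1.03 for Ddx3y, -0.0969 to 0.95 for Kdm5d and -0.10 to 1.09 for Uty. The block gave -0.33 for Adipoq, -0.14 for Plin1 and -0.0682 for Hbb-bs, and voom -0.48, -0.53 and -0.0927. Insr was at -0.00658 with the filter of 1 count, -0.00426 with DESeq2 size factors and -0.00424 with DESeq2. The cause was not tested. DESeq2, voom, the block and the covariate give no score. Depth limits genes of low level, and 3 mice a group limit small changes.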

Other observations

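A pair of genes outside the lists had counts in nearly 1 group alone, and both were chosen after their values were seen. Cdcp1, a transmembrane protein, had 0 counts in every WT quadriceps and 483, 425 and 253 counts in HSA-LR mice, at least 376-fold higher than the level of 3 counts over the WT group. Themis3 had 140, 118 and 46 counts in WT mice and 1, 0 and 0 in HSA-LR mice. Ucp1, the uncoupling protein of brown fat, lay at 196, 13.4 and 27.7 CPM in WT mice and 61.7, 190.0 and 0.0847 CPM in HSA-LR mice, an order of mice shared with Adipoq in that HSA-LR mouse 3 was lowest. Fos lay at 19.2, 23.8 and 13.8 CPM in WT mice and 239.6, 16.9 and 28.5 CPM in HSA-LR mice (adjusted P = 0.110).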
